A study of Drosophila melanogaster with 6 samples.

Results

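Transcripts of 8 caspases and apoptosis regulators were examined in ovaries of Drosophila melanogaster: the caspase genes Dcp-1, decay, Damm and Dredd, the apoptosome gene Dark, the Bcl-2 family gene Buffy, and the inhibitor of apoptosis genes th and Diap2. The genes were chosen by name, with earlier results of these data known. All 8 have a row among the 13216 rows of the table, 6 of them under these names, while Dark is listed as Ark and Diap2 as Iap2. All 8 were among the 10132 rows abundant enough to be tested.

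Caspases are proteases that are made as inactive precursors and cut cellular proteins when a cell dies. In flies the initiator caspase Dronc is activated on a scaffold of Dark, the relative of mammalian Apaf-1, and then cuts the effector caspases Drice and Dcp-1. The inhibitor of apoptosis proteins, above all the product of th (also called Diap1), hold caspases in check until antagonists such as Reaper, Hid and Grim displace them. In the ovary, egg chambers that fail at mid-oogenesis, for example in poorly fed females, die in a way that needs Dcp-1, and the nurse cells of every maturing egg chamber die late in oogenesis with help from engulfing follicle cells. Dredd and Diap2 also act in the Imd pathway of antibacterial immunity, in which Dredd cuts the transcription factor Relish.

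The GCNA null ovaries (3 libraries) came from females with a knock-in knock-out CRISPR allele of Gcna, a germ cell nuclear protein gene, in a line crossed to wBerlin for 10 generations. The wild-type ovaries (3 libraries) came from the white-eyed stock wBerlin. Ovaries of both groups were dissected from females aged 1 to 3 days that had been fed wet yeast for 24 hours at 25 °C, and total RNA from 18 nt upwards was sequenced after depletion of ribosomal RNA. The comparison asks which RNAs differ between the GCNA null line and wBerlin; it rests on 1 mutant line, so founder sequence that remained after outcrossing cannot be told apart from loss of Gcna.

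Levels are given as normalized counts, which are reads divided by 1 size factor per library, so that 1 read is worth 0.789 to 1.15 normalized counts. The libraries held 38401723 to 55758180 counted reads. CG14814, the row of Gcna, had 493, 428 and 520.4 normalized counts in GCNA null libraries and 20676, 18292 and 19581 in the wild-type libraries. GCNA null replicates 1 and 2 were nearly alike (chi-square of their reads per degree of freedom 1.62, against 25.2 to 93.6 for the other pairs within a group), and their mean was counted as 1 sample, so that means ± SD are over 2 GCNA null and 3 wild-type samples. The labels do not tell whether the libraries of a group were made from different flies. The p-values below therefore reflect the variation among these libraries, which may be technical. The 8 germline marker genes (such as vas, nos and osk) and the 7 follicle cell marker genes were all detected, so the markers of the labelled tissue were present. The germline markers summed to 186715 to 195097 normalized counts in GCNA null libraries and 199326 to 228501 in wild-type libraries. Among them vas and otu were lower in all 3 GCNA null libraries, and nos, osk, orb, bam, aub and piwi overlapped between groups. The follicle cell markers summed to 426115 to 654417 in GCNA null and 553788 to 674036 in wild-type libraries. Yp1 and Yp2 were by far the most abundant of them and dominated the sum. Fas3, tj and peb were higher in all 3 GCNA null libraries, and slbo, br, Yp1 and Yp2 overlapped between groups. The 6 testis markers with a row summed to at most 219 normalized counts in GCNA null libraries and 179.7 in wild-type libraries. Single testis markers went different ways within that sum. mia was lower in GCNA null (at most 128.8, against at least 154.3). aly (at least 39.4, against at most 3.74) and can (at least 5.03, against at most 1.09) were higher, and comr, betaTub85D and Mst87F overlapped between groups. Late-stage eggshell transcripts differed between libraries: 13 chorion and vitelline membrane genes summed to 598051, 571133 and 1418358 normalized counts in GCNA null replicates 1 to 3 and to 1355977, 1543603 and 1382149 in wild-type replicates 1 to 3. The 8 muscle markers summed to 25879.6 to 56525 in the GCNA null and 29565 to 49983 in the wild-type libraries, and the 7 fat body markers to 3316 to 10499 in the GCNA null and 5862 to 9715 in the wild-type libraries. In bulk RNA of a whole organ, fewer cells of a type and less RNA per cell cannot be told apart. The part that these shifts in tissue makeup play in the results below was not tested. Values given without a library do not separate tissue makeup from other differences between libraries.

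Of the 8 genes, Dredd alone passed the test and was lower in GCNA null ovaries, at 0.701 times the wild-type mean. Damm, a scarce caspase transcript, had the widest difference, at 3.90 times the wild-type mean, but missed the threshold. Dcp-1 and Diap2 had group means within a few percent of each other, and their libraries overlapped between groups. The test was limma on log2 of the normalized count plus 1 over all tested rows, with a Benjamini-Hochberg adjusted p under 0.05 counted as a call. It called 6.37% of all tested rows, 4.25% as higher and 2.11% as lower, and 1 of the 8 genes, a count too small to stand apart from that share. An unadjusted p under 0.05 was reached by 3 of the 8 genes (Dredd, Damm and th) and by 23.1% of all tested rows. With the 6 libraries taken as separate samples, limma called 1 of the 8 genes higher and 2 lower, against 9.23% and 7.39% of all tested rows. DESeq2 on the recovered reads called 1 higher and 1 lower, against 7.45% and 5.35%, and edgeR 0 higher and 1 lower, against 4.52% and 1.92% (6.44% in all). For 6 of the 8 genes the 3 GCNA null libraries did not overlap the 3 wild-type libraries, and 38.9% of all tested rows showed the same separation. Damm, decay and Buffy were higher in all 3 GCNA null libraries (19.6% of tested rows were), and Dredd, Dark and th were lower (19.3%). The median log2 difference of the 8 genes was 0.04, and that of all tested rows was -0.00045.

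**Figure D1:**
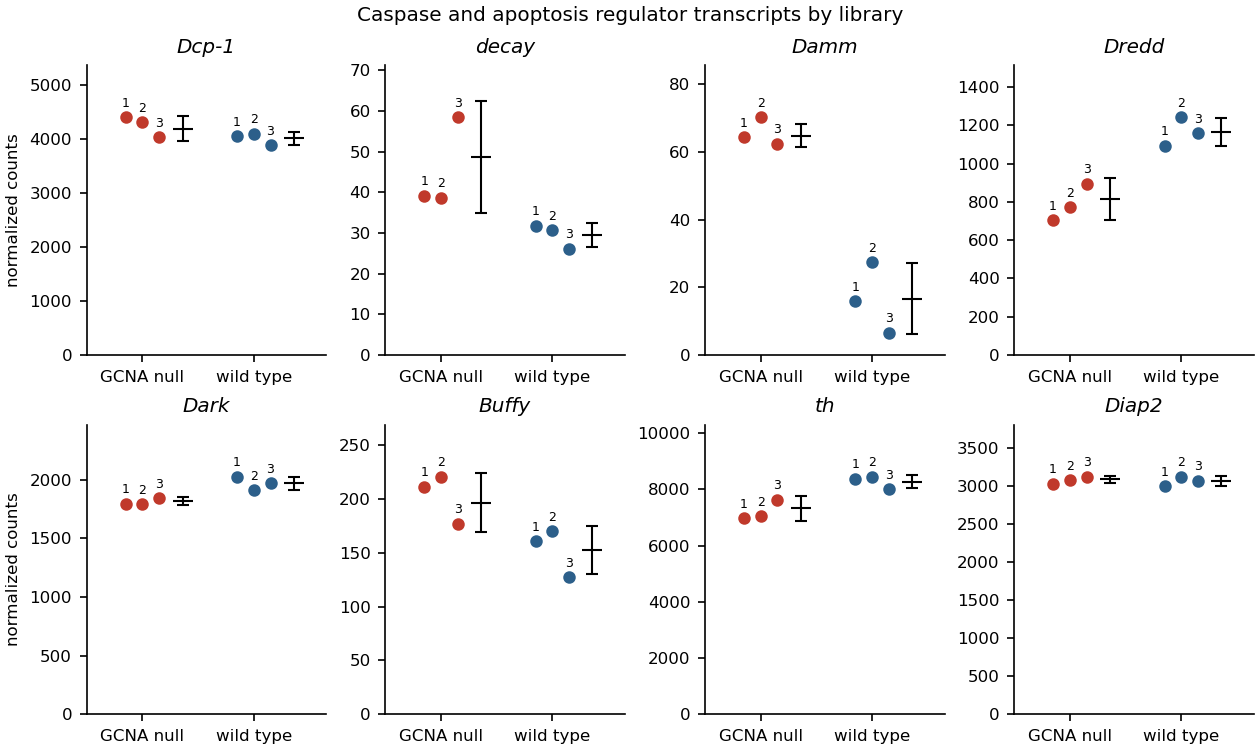
Normalized counts of each gene (vertical axis, from 0) in the 3 GCNA null libraries (red) and the 3 wild-type libraries (blue), numbered by replicate; black bars are the mean ± SD over 2 GCNA null and 3 wild-type samples. Dredd, Dark and th lie lower in every GCNA null library than in any wild-type library, Damm, decay and Buffy lie higher, and Dcp-1 and Diap2 overlap.

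Dcp-1, the effector caspase required for death of mid-stage egg chambers, was among the more abundant of the 8 transcripts. It lies on 2R from 23551313 to 23553547, in dm6 coordinates and on the plus strand, wholly inside the span of pita on the opposite strand. Dcp-1 had 4392, 4310.2 and 4022 normalized counts in GCNA null replicates 1 to 3, against 4049, 4089 and 3876 in wild-type replicates 1 to 3. The ranges overlapped, since GCNA null replicate 3 lay below wild-type replicates 1 and 2. The means were 4187 ± 233 in GCNA null and 4005 ± 113 in wild-type ovaries, a log2 difference of 0.06 (95% interval -0.08 to 0.21, limma adjusted p = 0.575). pita, a zinc finger gene whose reads could be mixed with those of Dcp-1 if strand was not used in counting, had a log2 difference of 0.02 (limma adjusted p = 0.907).

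The other effector-like caspases of the set were scarce. decay, which resembles mammalian effector caspases, lies on 3R at 16499058 to 16501050 (minus strand), and no annotated gene overlaps it. It had 39.1, 38.7 and 58.4 normalized counts in GCNA null libraries, against 31.8, 30.7 and 26.2 in the wild-type libraries, from 34 to 58 reads per GCNA null library and 24 to 34 per wild-type library. Every GCNA null value lay above every wild-type value, with GCNA null replicate 3 highest. The difference was 0.68 on the log2 scale (95% interval -0.02 to 1.37, limma adjusted p = 0.228). The exact Poisson 95% intervals, which cover counting error only, ran from 27.1 to 54.6 normalized counts for GCNA null replicate 1 and from 22.0 to 44.4 for wild-type replicate 1, so the ranking of those libraries was within counting error. The nearest gene to the right of decay, CG42342, on the opposite strand and 1719 bp away, was higher in GCNA null ovaries, with 247 ± 16.8 normalized counts against 82.0 ± 27.5 in wild-type ovaries (log2 difference 1.63, limma adjusted p = 0.0241).

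Damm, a caspase gene named for its likeness to mammalian Mch2, lies on 2R at 11864112 to 11866383 on the minus strand. It had 64.4, 70.2 and 62.4 normalized counts in GCNA null libraries, against 15.9, 27.5 and 6.54 in the wild-type libraries. All GCNA null libraries exceeded all wild-type libraries, and the GCNA null values lay close together while the wild-type values spread over a wide range. The values rest on 56, 89 and 62 reads in GCNA null libraries and on 17, 26 and 6 reads in the wild-type libraries. The Poisson interval of the lowest GCNA null library (47.8 to 80.0 normalized counts) did not reach that of the highest wild-type library (18.0 to 40.3). The chi-square of the reads per degree of freedom was 0.284 among the GCNA null and 6.15 among the wild-type libraries, so the wild-type libraries varied more than counting gives. The log2 difference was 2.10 (SE 0.56, 95% interval 0.76 to 3.44), with a limma adjusted p of 0.0856 on 5 samples. Damm passed with the 6 libraries taken as separate samples (limma adjusted p = 0.0234) and with DESeq2 on the recovered reads (adjusted p = 0.0204). These settings called 16.6% and 12.8% of all tested rows. Damm also passed with limma-voom (adjusted p = 0.0421), which called 500 of the 10132 tested rows higher and 221 lower. Of all tested rows, 2.11% had a larger absolute difference than Damm. CG42531, which overlaps 781 bp of Damm on the opposite strand, had 0 to 3.02 normalized counts in any library. CG13185, the next gene on the same strand, lies 1492 bp to the right and had 24718 ± 2977 normalized counts in GCNA null and 21634 ± 3676 in wild-type ovaries (log2 difference 0.20, limma adjusted p = 0.480).

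Dredd, the caspase that acts with the adaptors Imd and Fadd in immune signalling, was the 1 gene of the set that passed. It lies on the X chromosome at 633622 to 635545 on the minus strand. Dredd had 705, 771 and 895 normalized counts in GCNA null replicates 1 to 3, against 1094, 1241 and 1159.7 in wild-type replicates 1 to 3. The GCNA null libraries all lay below the wild-type libraries, with GCNA null replicate 3 nearest to them. The means were 816 ± 111 in GCNA null and 1165 ± 73.7 in wild-type ovaries (log2 difference -0.52, SE 0.11, limma adjusted p = 0.0436). With 6 separate samples the limma adjusted p was 0.0108, with edgeR on the recovered reads 0.049 and with DESeq2 0.00132. The call was lost when any 1 wild-type library was left out (limma adjusted p = 0.0895 without replicate 1, 0.118 without replicate 2 and 0.135 without replicate 3) and when GCNA null replicates 1 and 2 were dropped together (log2 difference -0.38, adjusted p = 0.213). GCNA null replicates 1 and 2, the lowest libraries for Dredd, also had the lowest eggshell sums, and the part of this in the level of Dredd was not tested.

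Dredd and Gcna lie on the same arm, with 1226463 bp between them. The genes that flank or touch Dredd had small differences: l(1)1Bi, which overlaps its end by 12 bp on the opposite strand, had a log2 difference of -0.10 (limma adjusted p = 0.335), su(s), 344 bp to the right, 0.08 (adjusted p = 0.521) and the ribosomal protein gene RpL36 0.11 (adjusted p = 0.684). Of 17 other tested rows within 100000 bp of Dredd, 1 was lower and none was higher by limma. This was CG13364, named here after its value was seen, at 624757 to 625203 (log2 difference -0.28, limma adjusted p = 0.0408). Of 141 tested rows on the X chromosome between its left end and Gcna, 6 were higher and 10, Dredd among them, were lower (11.3%), against 6.37% of all tested rows. Whether retained founder sequence around Gcna has a part in the level of Dredd was not tested.

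Over the 6 libraries the rows most like Dredd in pattern, by Pearson correlation of log2 values among 8496 other rows with a mean of at least 50 normalized counts, were CG3457 (r = 0.995), 128up (r = 0.994) and CG6356 (r = 0.993). These are descriptions over 6 points that share libraries and group difference, and 398 rows had r above 0.95. CG3457, also on the X chromosome, at 2187820 to 2188919, had a log2 difference of -0.42 (limma adjusted p = 0.0488), which did not pass without any 1 wild-type library (0.0945 to 0.124). 128up had a log2 difference of -0.23 (limma adjusted p = 0.0775). CG6356, on 3R, had 51.8, 62.3 and 96.6 normalized counts in GCNA null libraries, against 134, 162 and 156 in wild-type libraries (limma adjusted p = 0.0802).

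Dark, listed as Ark, encodes the apoptosome scaffold that activates Dronc. It lies on 2R at 17020027 to 17026703 on the plus strand and overlaps the antisense RNA CR44390. Dark had 1796, 1793 and 1842 normalized counts in GCNA null libraries, against 2026, 1910.4 and 1972 in the wild-type libraries. The groups did not overlap, but the gap between them was small next to the level. The log2 difference was -0.11 (95% interval -0.26 to 0.03, limma adjusted p = 0.310). CR44390 had 103 ± 1.23 normalized counts in GCNA null and 95.3 ± 8.13 in wild-type ovaries, far below the level of Dark.

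Buffy encodes a Bcl-2 family protein that is mostly described as protective in flies. It lies on 2R at 11679492 to 11688557 on the plus strand. Buffy had 212, 221 and 177 normalized counts in GCNA null libraries, against 161, 170.2 and 128 in the wild-type libraries. The lowest GCNA null library lay just above the highest wild-type library, and replicate 3 was the lowest of each group. The log2 difference was 0.37 (95% interval -0.10 to 0.83, limma adjusted p = 0.309), and 0.15 with quantile normalization. wal, an electron transfer flavoprotein gene that ends 11 bp from the end of Buffy on the opposite strand, was higher in GCNA null ovaries, with 12104 ± 660.1 normalized counts against 9290.2 ± 702 in wild-type ovaries (log2 difference 0.38, limma adjusted p = 0.0415). Reads of so abundant a neighbour could add to the count of Buffy if they ran past its end and strand was not used, which was not tested.

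Of the inhibitors of apoptosis, th lay lower in all 3 GCNA null libraries without passing the test, and Diap2 overlapped between groups. th, the main brake on Dronc, Drice and Dcp-1, lies on 3L at 16038410 to 16051034 on the minus strand. th had 6974, 7052 and 7636 normalized counts in GCNA null libraries, against 8371, 8448 and 8013 in the wild-type libraries. Every GCNA null library lay below every wild-type library, and GCNA null replicate 3 came closest. The means were 7324 ± 440.3 in GCNA null and 8278 ± 232 in wild-type ovaries, a log2 difference of -0.18 (95% interval -0.32 to -0.03, limma adjusted p = 0.154). CR43951, a non-coding RNA that overlaps th on the opposite strand, had 11.0 ± 2.68 normalized counts in GCNA null and 8.56 ± 1.74 in wild-type ovaries. With 6 separate samples th passed (limma adjusted p = 0.0362), and with DESeq2 it did not (adjusted p = 0.0685). Diap2, listed as Iap2, acts chiefly as a ubiquitin ligase of the Imd pathway and lies on 2R at 15932170 to 15934825 on the minus strand. Diap2 had 3027, 3071 and 3119 normalized counts in GCNA null libraries, against 2991, 3118 and 3068 in the wild-type libraries, and the groups overlapped. Its log2 difference was 0.01 (95% interval -0.12 to 0.14, limma adjusted p = 0.918).

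The ratio of th to Dcp-1, the inhibitor to the effector caspase it restrains, is free of the size factor of a library. It was 1.59, 1.64 and 1.90 in GCNA null replicates 1 to 3, against 2.07, 2.07 and 2.07 in wild-type replicates 1 to 3. The wild-type ratios were nearly identical, and the GCNA null ratios were lower and more spread. Dcp-1 had 3556 to 4330 reads per wild-type library, and counting error alone is wider than that agreement. The wild-type SD is therefore no measure of how tightly the ratio is held. The means were 1.76 ± 0.203 in GCNA null and 2.07 ± 0.00089 in wild-type ovaries, and no test was made, since both genes were chosen with these data known. GCNA null replicate 3, with an eggshell sum in the wild-type range, had the ratio closest to wild type, and the part of tissue makeup in the ratio was not tested. The ratio is of reads and not of transcripts, since the genes differ in length.

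**Figure D2:**
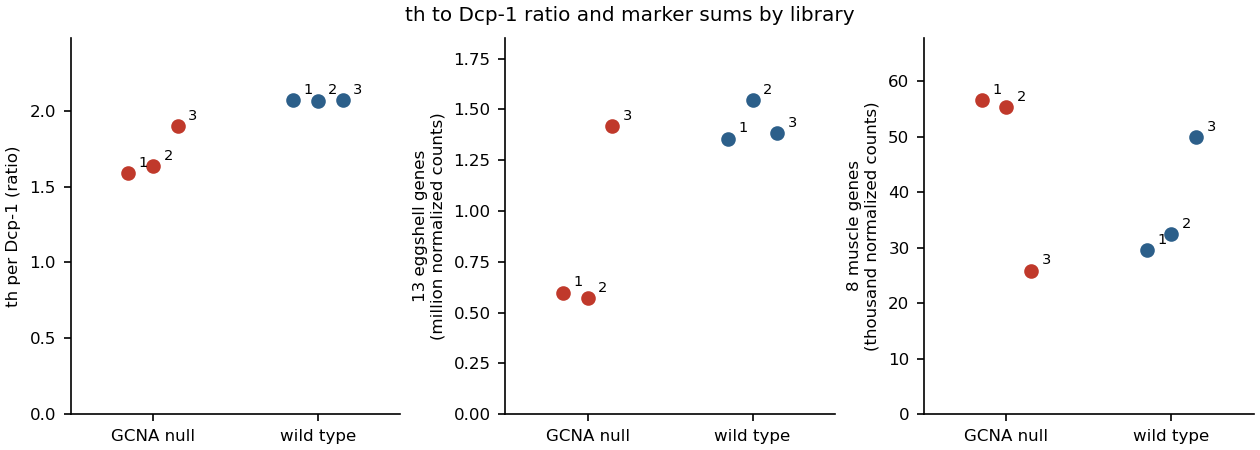
The ratio of th to Dcp-1 (left), the sum of normalized counts over 13 eggshell genes (middle) and over 8 muscle genes (right), each axis starting at 0, in each GCNA null (red) and wild-type (blue) library, numbered by replicate. The ratio was below 2.07 in all 3 GCNA null libraries, of which replicates 1 and 2 also had the lowest eggshell sums and the highest muscle sums.

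Levels were compared between genes per kilobase of annotated exon. In GCNA null ovaries Dcp-1 had 2394 ± 133 normalized counts per kb and th 2330.4 ± 140.1, followed by Diap2 (1445 ± 23.3), Dredd (478 ± 65.0), Dark (372 ± 6.82), Buffy (189.5 ± 26.6), decay (43.8 ± 12.4) and Damm (32.0 ± 1.71). Dcp-1 and th overlapped among the GCNA null libraries, and the lowest decay library (34.8 per kb) and the highest Damm library (34.6 per kb) nearly met. In wild-type ovaries the order of normalized counts per kb was th (2634 ± 73.9), Dcp-1 (2289.7 ± 64.9), Diap2 (1434 ± 29.8), Dredd (682 ± 43.1), Dark (403 ± 11.9), Buffy (147 ± 21.6), decay (26.6 ± 2.68) and Damm (8.21 ± 5.17). The ranges of neighbours in this order did not overlap among the wild-type libraries. The median over 9797 tested genes with a known exon length was 760.2 normalized counts per kb in wild type, so th, Dcp-1 and Diap2 lay above it and the others below.

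**Figure D3:**
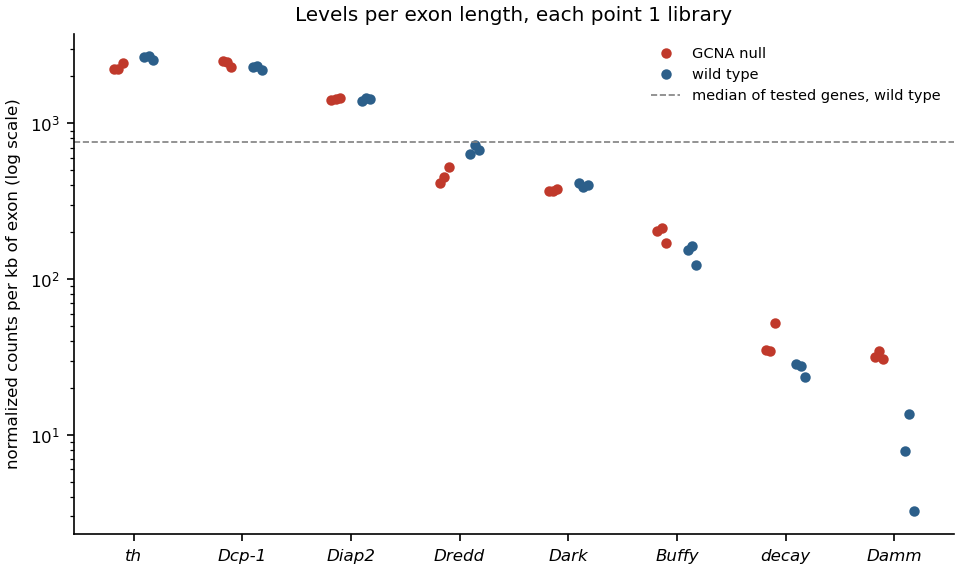
Normalized counts per kb of exon (log axis) for each gene in the GCNA null (red) and wild-type (blue) libraries, ordered by the wild-type mean; the dashed line is the median of tested genes in wild type, 760.2. Damm, at the bottom, shows the widest gap between groups, and th, Dcp-1 and Diap2 lie above the line.

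The remaining caspases showed no call. Drice (listed as Ice), the main effector caspase, had 4416 ± 171 normalized counts in GCNA null and 4639 ± 185 in wild-type ovaries (log2 difference -0.07, limma adjusted p = 0.525). Dronc (listed as Nc), the initiator, had 3510.0 ± 138 in GCNA null and 3238 ± 146 in wild-type ovaries (log2 difference 0.12, adjusted p = 0.320). Strica (listed as dream), a long-prodomain caspase, had 866, 813 and 741 normalized counts in GCNA null libraries, against 618, 631 and 569 in the wild-type libraries. Its groups did not overlap, and its log2 difference of 0.38 missed the threshold (limma adjusted p = 0.0853, 0.0189 with 6 separate samples, 0.0192 with DESeq2). Of all 7 fly caspase genes, 1 was thus lower and none was higher with limma on 5 samples (2.11% and 4.25% of all tested rows). An unadjusted p under 0.05 was reached by 3 of the 7 genes and by 23.1% of all tested rows. Damm and Strica were higher with 6 separate samples and with DESeq2 (9.23% and 7.45% of all tested rows), where Dredd was lower (7.39% and 5.35%). The reads of the 7 genes together came to 13810.5, 13675 and 13923 normalized counts in GCNA null libraries, against 13867, 14076 and 13154 in the wild-type libraries. The total caspase level thus overlapped between groups, and Damm made up 0.448% to 0.514% of it in GCNA null and 0.0497% to 0.195% in wild-type libraries.

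The wider apoptosis pathway was followed in 7 lists of 66 genes, of which 64 had a row and 62 were tested, the 8 genes included. In GCNA null ovaries 5 of the 62 were higher and 3 were lower by limma, where 4.25% of all tested rows were higher and 2.11% lower, and 54 did not pass. With 6 separate samples 10 were higher and 8 lower, against 9.23% and 7.39% of all tested rows. With DESeq2 there were 9 higher and 7 lower, against 7.45% and 5.35%. Over the 62 genes the median log2 difference was 0.06, against -0.00045 over all tested rows. The groups did not overlap for 31 of the 62, and for 38.9% of all tested rows.

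**Figure D4:**
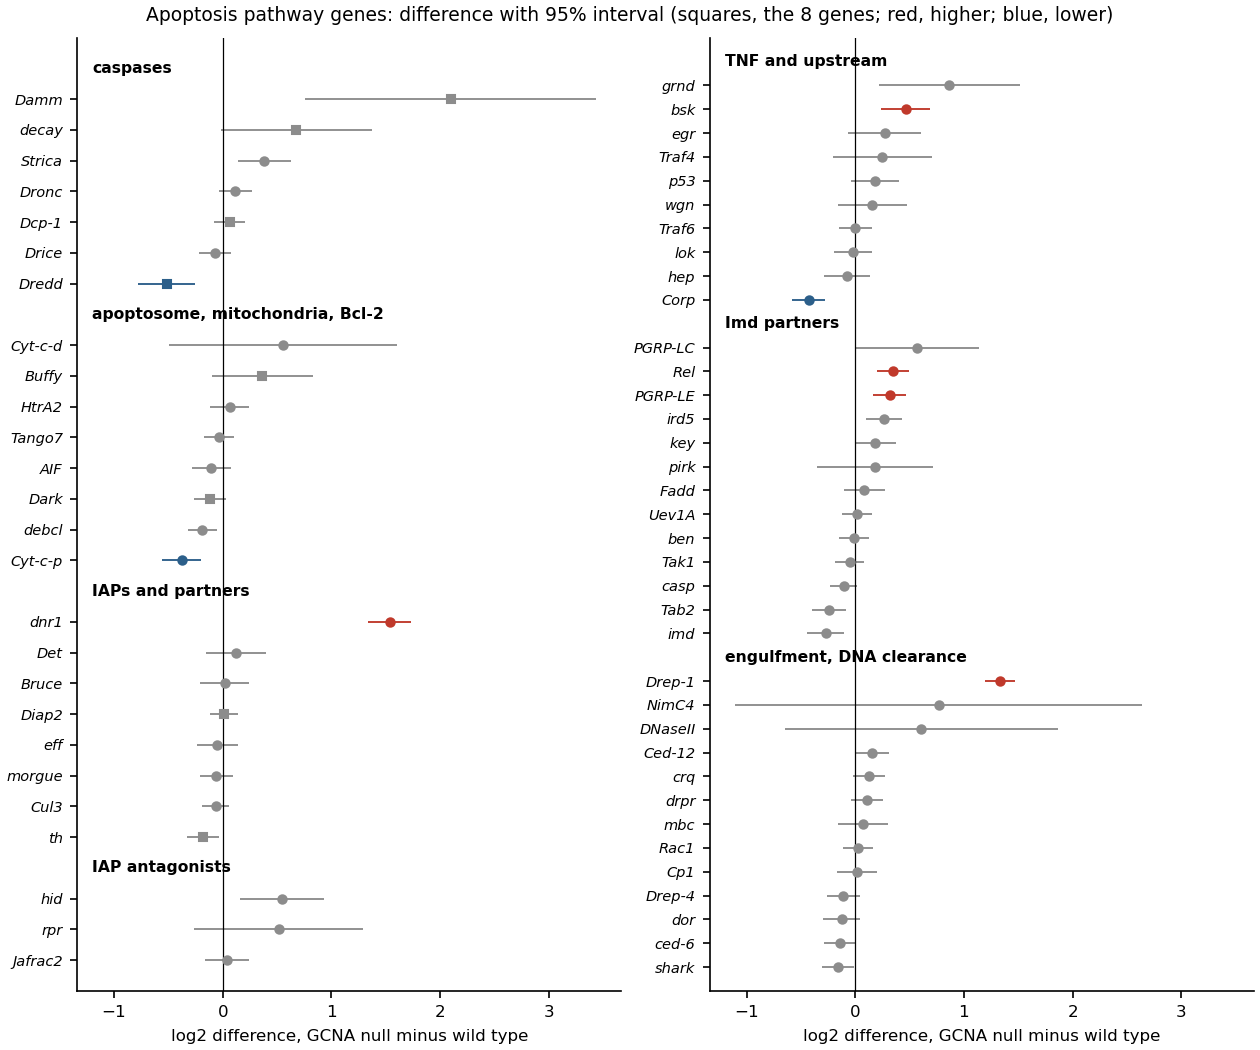
Log2 difference, GCNA null minus wild type, with its 95% interval for the 62 tested pathway genes by list; squares are the 8 genes, red marks genes that were higher and blue genes that were lower at a limma adjusted p under 0.05. dnr1 at 1.54 and Drep-1 at 1.33 stand out among the higher genes, and the intervals of scarce genes such as Damm are wide.

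Among the inhibitor of apoptosis proteins and their partners, 1 of 8 tested genes was higher and none was lower (4.25% and 2.11% of all tested rows). This was dnr1, which encodes a RING finger protein found in fly cell culture to restrain Dredd and Dronc. dnr1 had 1581, 1568 and 1539 normalized counts in GCNA null libraries, against 563, 516 and 532 in the wild-type libraries. The groups lay far apart, at 2.90 times the wild-type mean (log2 difference 1.54, SE 0.08, limma adjusted p = 0.00043), and dnr1 passed in all 20 other settings. It lies on 2R at 22563152 to 22592964. The abundant ubiquitin-pathway genes eff and Bruce had log2 differences of -0.05 and 0.02 (limma adjusted p = 0.750 and 0.935).

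Among genes of engulfment and DNA clearance, 1 of 13 was higher and none was lower, near the shares of all tested rows (4.25% and 2.11%). Drep-1, the fly relative of the DFF45 inhibitor that holds the caspase-activated DNase inactive, had 6571, 6776 and 6246 normalized counts in GCNA null libraries, against 2499.5, 2613 and 2594 in the wild-type libraries. This is 2.51 times the wild-type mean (log2 difference 1.33, SE 0.06, limma adjusted p = 0.00026), and Drep-1 also passed in all 20 other settings. It lies on 2R at 12044612 to 12050172, and no annotated gene overlaps it. Drep-4, the nuclease that it inhibits, had a log2 difference of -0.11 (limma adjusted p = 0.348). The engulfment receptor gene drpr had a log2 difference of 0.11 (adjusted p = 0.354), and the abundant genes ced-6, an engulfment adaptor, and Cp1, a lysosomal cathepsin, had -0.14 and 0.01 (adjusted p = 0.222 and 0.929).

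Of 13 Imd pathway partners, 2 were higher and none was lower (4.25% and 2.11% of all tested rows). Rel, which encodes Relish, the substrate of Dredd, had 4607, 4541 and 4157 normalized counts in GCNA null libraries, against 3514, 3392 and 3393 in the wild-type libraries (log2 difference 0.35, SE 0.06, limma adjusted p = 0.0281). Its span overlaps Nmdmc on the same strand, so its count is uncertain where the authors' counting could split reads between them. PGRP-LE, an intracellular receptor for bacterial peptidoglycan, had 2694 ± 96.7 in GCNA null and 2164 ± 83.6 in wild-type ovaries (log2 difference 0.32, adjusted p = 0.0368). The adaptor imd itself had a log2 difference of -0.27 (adjusted p = 0.0802), its kinase partner ird5 0.26 (adjusted p = 0.0808) and Tab2 -0.24 (adjusted p = 0.0910). These 3, named after their values were seen, passed with 6 separate samples and with DESeq2. In each of these settings 3 of the 13 partners were higher and 2 lower. Of all tested rows, 9.23% were higher and 7.39% lower with 6 separate samples, and 7.45% and 5.35% with DESeq2. The abundant ubiquitin-conjugating genes Uev1A and ben had log2 differences of 0.02 and -0.0090 (adjusted p = 0.904 and 0.945). Hemocyte markers, which bear on immune genes, summed to 21416 to 22950.3 normalized counts over 9 genes in GCNA null libraries and to 15420.0 to 21817 in the wild-type libraries. Single hemocyte markers differed in whether the groups separated, and none was lower in all GCNA null libraries. Hml had 486, 497 and 259 normalized counts in GCNA null libraries, against 119, 217 and 201 in wild-type libraries. The crystal cell markers PPO1 (at least 63.9 in GCNA null, at most 26.4 in wild-type libraries) and PPO2 (at least 41.4 in GCNA null, at most 16.8 in wild-type libraries) also lay higher in all GCNA null libraries. Pxn had 1623, 1565 and 727 in GCNA null libraries, against 660.2, 758 and 948 in wild-type libraries. It overlapped between groups, as did srp, NimC1, eater, vkg and Cg25C. Of these markers vkg and Cg25C were the most abundant. The part of hemocytes in these differences was not tested.

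The apoptosome, mitochondrial and Bcl-2 list had 1 lower and no higher gene of 8 (2.11% and 4.25% of all tested rows). Cyt-c-p, the somatic cytochrome c gene, had 15835, 15629 and 16559.9 normalized counts in GCNA null libraries, against 19561, 22176 and 21322 in the wild-type libraries (log2 difference -0.38, SE 0.08, limma adjusted p = 0.0383). debcl, a Bcl-2 relative that is mostly described as pro-death, had 2922, 2923 and 2913 normalized counts in GCNA null libraries, against 3368, 3206 and 3408 in the wild-type libraries. It did not pass with limma on 5 samples (log2 difference -0.19, adjusted p = 0.108) or with edgeR (adjusted p = 0.107). It passed with limma on 6 separate samples (adjusted p = 0.0242) and with DESeq2 (adjusted p = 0.0349). These 2 settings called 7.39% and 5.35% of all tested rows lower. Tango7, a translation initiation factor subunit that also regulates Dronc, had a log2 difference of -0.04 (adjusted p = 0.739).

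None of the 3 tested IAP antagonist genes passed with limma on 5 samples, and 1 had an unadjusted p under 0.05 (23.1% of all tested rows). This gene was higher with 6 separate samples and with DESeq2 (9.23% and 7.45% of all tested rows). It was hid, listed as W, with 588, 624 and 542 normalized counts in GCNA null libraries, against 475, 369 and 346 in the wild-type libraries. The libraries did not overlap (log2 difference 0.54, 95% interval 0.16 to 0.93, limma adjusted p = 0.109, 0.0284 with 6 separate samples, 0.0385 with DESeq2). rpr had 105, 91.5 and 51.3 normalized counts in GCNA null libraries, against 44.9, 57.1 and 46.9 in the wild-type libraries. GCNA null replicate 3 lay within the wild-type range while replicates 1 and 2 lay above it, so the log2 difference of 0.52 (adjusted p = 0.389) was 0.056 without those 2 libraries. skl, with 28 reads in all GCNA null and 10 in all wild-type libraries, was too scarce to test, and Jafrac2 had a log2 difference of 0.04 (adjusted p = 0.811).

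Of 10 TNF and upstream genes, 1 was higher and 1 was lower (4.25% and 2.11% of all tested rows). bsk, which encodes the Jun kinase, had 1249 ± 145 normalized counts in GCNA null and 901 ± 27.9 in wild-type ovaries (log2 difference 0.47, SE 0.09, limma adjusted p = 0.0388). Corp, a p53 target that feeds back on p53, had 1163 ± 32.2 in GCNA null and 1567 ± 18.5 in wild-type ovaries (log2 difference -0.43, adjusted p = 0.0150), and its span overlaps CG1632 on the opposite strand. The checkpoint kinase gene lok and the Jun kinase kinase gene hep, the most abundant of the list, had log2 differences of -0.02 and -0.08 (adjusted p = 0.884 and 0.655).

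The calls of the other 5 pathway genes besides dnr1 and Drep-1 depended on single libraries. Rel and bsk did not pass without any 1 wild-type library (limma adjusted p = 0.0736 to 0.0985 for Rel and 0.0866 to 0.125 for bsk) or without GCNA null replicates 1 and 2 (0.169 and 0.204). PGRP-LE did not pass without any 1 wild-type library (0.0733 to 0.120), without GCNA null replicate 3 (0.0700) or without GCNA null replicates 1 and 2 (0.218). Cyt-c-p did not pass without wild-type replicate 2 (0.0815) or 3 (0.133), without GCNA null replicate 3 (0.0799) or without GCNA null replicates 1 and 2 (0.229). Corp did not pass without wild-type replicate 1 (0.0594) or 3 (0.0627), without GCNA null replicate 3 (0.0527) or without GCNA null replicates 1 and 2 (0.0778). The signs of these 5 differences were the same in all 20 other settings.

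The 8 genes differed in how far their result depended on the libraries and the method. Across 20 other settings Dredd passed in 15, all with a negative difference. Damm passed in 4 of the 19 settings in which it could be tested and th in 1 of 20. Dcp-1, Dark, Diap2, Buffy and decay passed in none. Only Diap2, whose difference was near 0, changed sign.

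**Figure D5:**
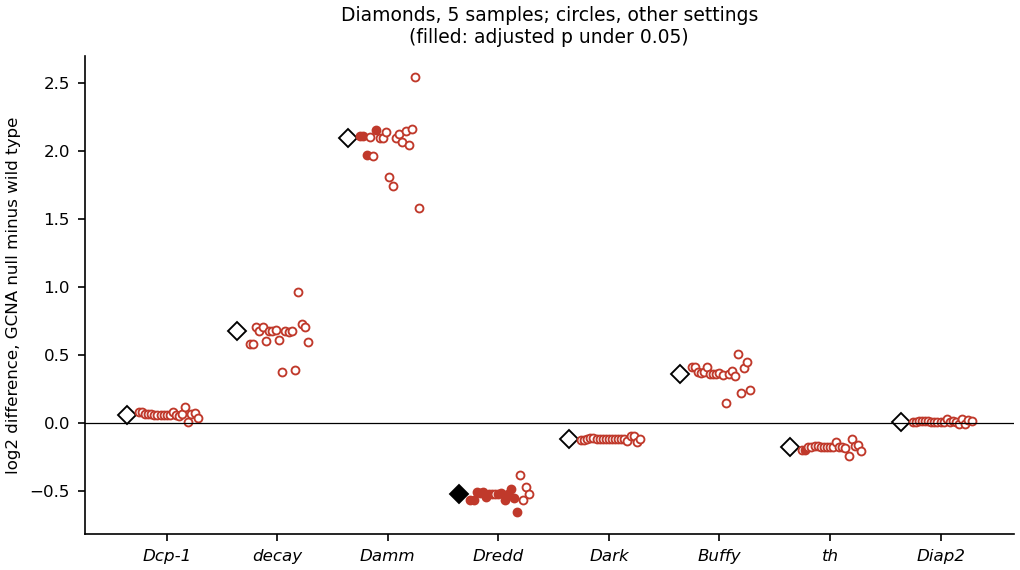
Log2 difference, GCNA null minus wild type, of each gene with limma on 5 samples (diamond) and in the other settings (circles); filled symbols have an adjusted p under 0.05. Dredd is filled in most settings, Damm in 4 and th in 1, and the differences of Dcp-1, Dark, th and Diap2 vary little around their main values.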

How the data were processed

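Total RNA of 6 ovary libraries (3 GCNA null, 3 wild type) was analysed from 1 table of 13216 rows. The submitters' processing notes name CASAVA 1.8.2, the aligner STAR 2.5, DESeq2 and, as the assembly, dm6. The counter, its strand setting and the annotation were not given in the sources used here. Each deposited value (a signal) is a read count divided by 1 size factor per library: all values (100%, within 1e-06) are whole multiples of the smallest positive value of their column, and whole reads were recovered from them. Gene places and exon lengths came from the Ensembl BDGP6 annotation (dm6 coordinates), matched by symbol or RefSeq synonym for 12820 rows. The test was limma 3.58.1 (R 4.3.3, mean-variance trend) on log2(normalized count + 1), two-sided, over rows that reached 10 normalized counts in 3 or more libraries, Benjamini-Hochberg adjusted over all of them. GCNA null replicates 1 and 2 were averaged as 1 sample. The added count of 1 shrinks changes of scarce RNAs on this scale. The log2 difference of Damm was still larger on it (2.10) than with DESeq2 or edgeR (1.97 with each). Alternatives were edgeR 4.0.16, DESeq2 1.42.0 and limma-voom on the recovered reads, other pseudocounts, filters and scalings, a replicate block, and each library left out. Only the main limma fit and the edgeR fit were checked on simulated counts. The simulation changed no rows as scarce as Damm or decay and held no shifts in tissue makeup. The 8 genes and all lists were chosen with earlier results of these data known. Genes named from a list were those that passed (at most 4), the 2 most abundant, and all caspases and IAP antagonists, plus genes overlapping or next to one of the 8 genes. debcl, imd, ird5, Tab2, drpr and Drep-4 were named after their values were seen.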

Additional observations from a re-analysis of the deposited data

How the results depend on the processing

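With 6 separate samples, 935 rows were higher and 749 lower, with DESeq2 755 and 542, and without the mean-variance trend 258 and 98; leaving out 1 library or sample gave 94 to 426 higher and 52 to 277 lower. Of the 8 genes, 1 was higher (Damm) with 6 separate samples, with or without the replicate block, with DESeq2 and with limma-voom, and none without any 1 library (0 to 0). 2 were lower with 6 separate samples and 0 without the trend, and 0 to 1 when a library was left out. Of the pathway genes, 10 were higher and 8 lower with 6 separate samples, 9 and 7 with DESeq2, 2 and 1 without the trend, and 2 to 5 and 0 to 3 with a library left out. Under the replicate block 9 pathway genes were higher, and 477 of all rows were lower. The replicate numbers share no origin in the labels, and the deviations of same-numbered libraries correlated at -0.18, 0.07 and -0.09, so the numbers were not taken to pair the samples.

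Dredd did not pass without the trend (-0.52, adjusted p = 0.105) and ranged from -0.66 to -0.38 with a library left out. Damm passed with 6 separate samples (2.12, with or without the replicate block), DESeq2 (1.97) and limma-voom (2.15), and ranged from 1.58 to 2.54 with a library left out. th passed with 6 separate samples (-0.20). Diap2 ranged from -0.0046 to 0.028 with a library left out. decay was 0.38 and Buffy 0.15 with quantile normalization, against 0.68 and 0.37. The ratio of th to Dcp-1 was 0.312 lower in GCNA null, and 0.169 to 0.455 lower with a library left out. Differences near 0 changed sign with quantile normalization for Tango7 (0.0065), eff (0.037), lok (0.019) and ben (0.035), and for Cp1 with 6 separate samples, with or without the replicate block (-0.0097). With a library left out, the ranges were -0.063 to 0.075 for Bruce, -0.0044 to 0.10 for Jafrac2, -0.081 to 0.037 for lok, -0.0085 to 0.039 for Uev1A, -0.036 to 0.022 for ben and -0.058 to 0.088 for Cp1. The cause was not tested. A setting that leaves out GCNA null replicate 3, or replicates 1 and 2, leaves 1 GCNA null sample, whose spread is taken to equal that of wild type. Damm and decay rest on under 100 reads per library, which limits their precision.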
